A study of Mus musculus with 10 samples.

Results

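The genes described here are 10 genes of the elastic fibre and of the small leucine-rich proteoglycans, chosen by name from 27267 genes listed in a table of normalized counts of mouse brown fat. *Eln*, *Fbn1*, *Fbln1* and *Fbln5* encode elastic fibre proteins. *Dcn*, *Lum*, *Bgn*, *Fmod*, *Ogn* and *Prelp* encode small leucine-rich proteoglycans. All 10 were in the table and all 10 passed the filter on low values, which kept 13714 genes with a mean of at least 10 normalized counts over the 10 libraries. They were chosen by name and not by a cutoff on a measured value, though with earlier results of these data known.

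RNA was taken from interscapular brown adipose tissue (iBAT) of C57BL/6 males of 4 weeks, with 5 libraries labelled wild type and 5 labelled *Mgp*-KO. Per the methods, the knockout is a global deletion of *Mgp*, the gene of matrix Gla protein, an extracellular protein that binds bone morphogenetic proteins and limits calcification. All mice had standard chow and a regular light cycle. The whole tissue was used, so fewer cells of a type and less RNA per cell cannot be told apart in any value below.

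Elastic fibres consist of a core of cross-linked elastin laid down on a scaffold of fibrillin microfibrils, with fibulins at their interface, and they give recoil to vessel walls and loose connective tissue. Small leucine-rich proteoglycans are secreted proteins built of leucine-rich repeats, several of which bind collagen fibrils and set their diameter and spacing. Some of them, decorin and biglycan among them, also bind growth factors of the TGF-beta family. In adipose tissue these genes are known mainly from fibroblasts, progenitors and the cells of vessel walls.

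Some libraries went against their labels. Libraries labelled *Mgp*-KO 4 and 5 held 309 and 282 *Mgp* reads (500 and 331 normalized counts), against 0, 1 and 1 reads in the libraries labelled *Mgp*-KO 1, 2 and 3 and 466 to 1150 normalized counts in wild type. Wild type 2 held 5090 normalized counts of *Xist* and 3.74 of 4 Y chromosome genes together, where the other 9 libraries held 0.754 to 44.0 and 1460 to 7040. Replicates 4 and 5 of both groups also stood apart from replicates 1 to 3, with 9.25 to 13.28 M reads on genes against 19.62 to 22.25 M and with mitochondrial ribosomal RNA at 6.50 to 16.7% of reads against 0.771 to 1.72%. The labels do not call these sets a batch. Skeletal muscle markers (10 genes, summed) ranged from 45.7 to 6188 normalized counts in wild type and from 36.1 to 35840 in the libraries labelled *Mgp*-KO, with the highest sums in *Mgp*-KO 2 and 5. Results are therefore given over all libraries and within each set. Leaving out the libraries labelled *Mgp*-KO 4 and 5 alone keeps wild type 4 and 5, so that genotype and set are mixed in that fit. The fit free of all 3 doubted libraries and of this mixing is that of replicates 1 to 3 without wild type 2, with 2 libraries against 3.

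Between genotypes, no member passed the test over all libraries. The nearest were *Lum*, with lower values in the libraries labelled *Mgp*-KO, and *Dcn* and *Fbn1*, with higher and lower values respectively. Between the sets of libraries 5 of the 10 members were called, where 38.2% of all tested genes were, with *Prelp*, *Fbln1* and *Bgn* lower and *Dcn* and *Ogn* higher in replicates 4 and 5. The call of *Ogn* did not hold in 7 of 10 fits that left out 1 library. The limma test on log2(normalized count + 1), adjusted over all 13714 genes, called 0 of the 10 members for genotype. It called 9 genes in all, a share of 0.0656%. At an unadjusted p under 0.05, 1 member and 1421 genes stood out. The median difference of the members was 0.01 on the log2 scale (5 positive, 5 negative), next to 0.03 over all tested genes. Differences on this scale understate the change of genes with low counts.

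**Figure D1:**
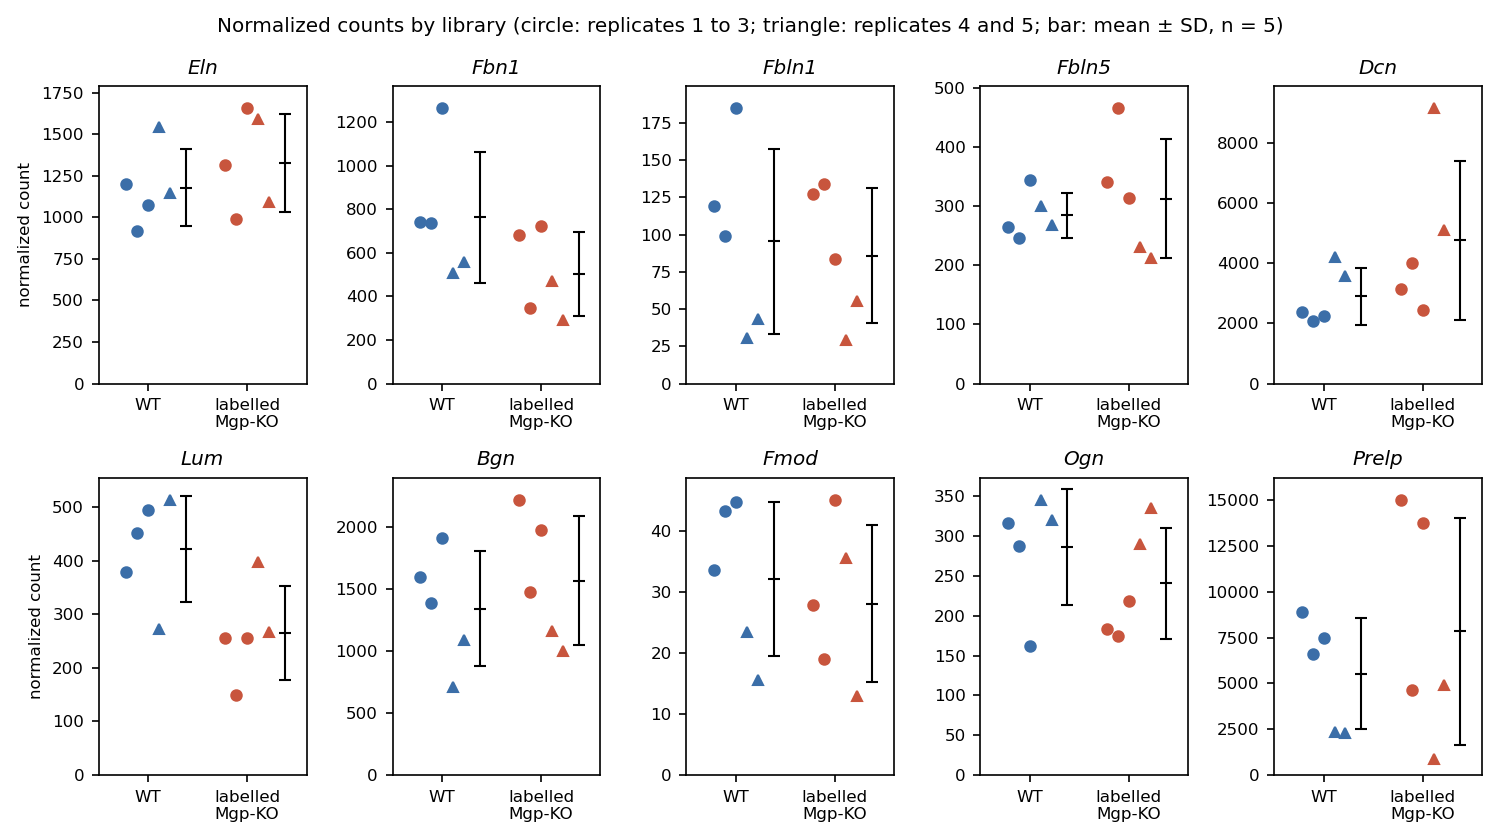
Normalized count of each member in each library, wild type in blue and libraries labelled *Mgp*-KO in red, with circles for replicates 1 to 3, triangles for replicates 4 and 5 and bars for the mean ± SD (n = 5). The groups overlap in all 10 panels, while the triangles of *Fbln1* (29.1 to 55.1) and *Bgn* (712 to 1161) lie below every circle.

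Levels differed widely among the members. Divided by the length of the main transcript, *Dcn* had the highest mean in wild type, at 1646 ± 540 normalized counts per kb (SD, n = 5), and *Prelp* followed at 1529 ± 836. These did not differ beyond their spread, and *Prelp* was above *Dcn* in wild type 1 to 3 and below it in wild type 4 and 5. *Bgn* came next at 553.7 ± 191, *Eln* had 305.6 ± 60.1, and *Lum* had 172.4 ± 40.2 per kb. *Ogn* (111.6 ± 28.2), *Fbn1* (63.64 ± 25.0) and *Fbln5* (48.8 ± 6.65) were next. *Fbln1* at 26.07 ± 17.0 and *Fmod* at 10.32 ± 4.06 per kb were the lowest. Of the neighbours in this order, only *Eln* and *Lum* were separate by mean ± SD, and the others overlapped. *Fmod* rested on 9 to 61 reads in a library and *Fbln1* in replicates 4 and 5 on 18 to 47, so counting error was largest there.

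By this measure the proteoglycans *Dcn*, *Prelp* and *Bgn* made up 36.8%, 34.2% and 12.4% of the summed level of the 10 members in wild type. In the libraries labelled *Mgp*-KO the same genes made up 43.7%, 35.0% and 10.4%, and *Lum* made up 1.74% against 3.86%. These shares are descriptions without a test. With the length of all exons joined in place of the main transcript, *Prelp* ranked above *Dcn* and *Lum* above *Eln*, and the shares of *Dcn*, *Prelp* and *Bgn* in wild type were 17.6%, 54.4% and 7.82%, so they depend on the length used.

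*Eln* encodes tropoelastin, the precursor of the elastic core, and lies on chr5:134702593-134747323 (GRCm38, minus strand), where it overlaps the antisense gene *Gm30003*. It had 1200, 920, 1072, 1546 and 1149 normalized counts in wild type 1 to 5, and 1317, 988, 1658, 1590 and 1093 under the *Mgp*-KO label. The groups overlapped over nearly their whole range. The difference was 0.17 ± 0.20 (log2, SE) with an adjusted p of 0.831 in limma. It was 0.29 ± 0.20 in replicates 1 to 3, 0.19 without wild type 2 there, and -0.02 ± 0.35 in replicates 4 and 5. Its SD within groups, 0.30 on the log2 scale, was in percentile 19.4 of the tested genes, the lowest of the members.

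*Fbn1* encodes fibrillin 1, the main protein of the microfibrils, on chr2:125300594-125507993 (minus strand), overlapping *Gm9913*. Its normalized counts were 741, 738, 1264, 507 and 559 in wild type 1 to 5 and 681, 348, 723, 469 and 290 under the *Mgp*-KO label. The groups overlapped, with the highest value in wild type 3 and the lowest in *Mgp*-KO 5. The difference was -0.61 ± 0.31 with an adjusted p of 0.533, and the exact permutation test gave 0.111. Without wild type 3 the difference was -0.41. It was -0.67 ± 0.33 in replicates 1 to 3, and there -0.80 without wild type 2 and -0.33 without *Mgp*-KO 2. In replicates 4 and 5 it was -0.53 ± 0.36.

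*Fbln1* encodes fibulin 1, a protein of elastic fibres and basement membranes, on chr15:85205949-85286535 (plus strand). It had 119, 98.8, 185, 30.8 and 43.3 normalized counts in wild type and 127, 134, 83.8, 29.1 and 55.1 under the *Mgp*-KO label. The 4 libraries of replicates 4 and 5 were all below the other 6 in both groups. The genotype difference was -0.07 ± 0.54 with an adjusted p of 0.976. It was -0.20 ± 0.28 in replicates 1 to 3, -0.39 without wild type 2 there, and 0.13 ± 0.58 in replicates 4 and 5.

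*Fbln5* encodes fibulin 5, which is required for elastic fibre assembly, on chr12:101746565-101819055 (minus strand). It had 264, 246, 344, 300 and 268 normalized counts in wild type and 341, 466, 313, 231 and 213 under the *Mgp*-KO label. The highest and the lowest libraries both carried the knockout label, *Mgp*-KO 2 and 5. The difference was 0.09 ± 0.23 with an adjusted p of 0.928 over all libraries, 0.38 ± 0.20 in the set of replicates 1 to 3 (0.29 without wild type 2) and -0.35 ± 0.33 in that of replicates 4 and 5. The interaction of genotype and set was -0.74 ± 0.32, with an unadjusted p of 0.0446 and an adjusted p of 0.477 in limma.

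*Dcn* encodes decorin, a proteoglycan that coats collagen fibrils and binds TGF-beta, on chr10:97479609-97518143 (plus strand). Its normalized counts were 2370, 2062, 2241, 4215 and 3577 in wild type 1 to 5. In the libraries labelled *Mgp*-KO they were 3137, 4004, 2451, 9156 and 5090. *Mgp*-KO 4 was the highest of all. The groups overlapped because wild type 4 and 5 were above *Mgp*-KO 1 and 3.

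Over all libraries the *Dcn* difference was 0.62 ± 0.35 (1.54-fold, 95% interval -0.13 to 1.38) with an adjusted p of 0.580 in limma, and 0.151 in the exact permutation test. With 1 library left out it ran from 0.35 (without *Mgp*-KO 4) to 0.82 (without *Mgp*-KO 3). Within replicates 1 to 3 it was 0.50 ± 0.18 with an adjusted p of 0.172, and within replicates 4 and 5 it was 0.81 ± 0.43 with an adjusted p of 0.679. DESeq2 with a term for the set called *Dcn* higher (0.66 ± 0.21, adjusted p 0.0239), the only member it called, in a fit that called 7.42% of 15533 genes. Limma with the same term gave an adjusted p of 0.116, and over the 26 alternative settings the adjusted p ranged from 0.0239 to 0.912. In replicates 1 to 3 without wild type 2 the difference was 0.44 with an adjusted p of 0.403. With 1 library left out there it ran from 0.32 (without *Mgp*-KO 2) to 0.67 (without *Mgp*-KO 3). Leaving out the libraries labelled *Mgp*-KO 4 and 5 but not wild type 4 and 5, whose *Dcn* was above that of wild type 1 to 3, gave 0.17 ± 0.27.

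*Lum* encodes lumican, a keratan sulfate proteoglycan that limits the thickening of collagen fibrils, on chr10:97565128-97572703 (plus strand). It lies 47.0 kb from *Dcn* on the same strand with no other protein-coding gene between. Its normalized counts were 378, 451, 495, 273 and 514 in wild type 1 to 5 and 255, 150, 255, 397 and 267 under the *Mgp*-KO label. *Mgp*-KO 4 was above wild type 1 and 4, and the other libraries labelled *Mgp*-KO were below every wild-type library. *Lum* was 422.1 ± 98.5 in wild type and 264.8 ± 87.7 in the libraries labelled *Mgp*-KO (SD, n = 5).

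The *Lum* difference over all libraries was -0.70 ± 0.27 (1.63-fold lower, 95% interval -1.28 to -0.12), with an unadjusted p of 0.0217 and an adjusted p of 0.363 in limma. The exact permutation test gave 0.0317, the lowest of the members, where 5 against 5 libraries cannot go below 0.00794. It was no longer under 0.05 when any 1 of 6 of the 10 libraries was left out (wild type 2, 3 or 5, or *Mgp*-KO 1, 2 or 3). Tests of the other 9 members gave 0.111 to 0.905, and the test of *Lum* is not adjusted for their number. Within replicates 1 to 3 the difference was -1.03 ± 0.23 (2.05-fold lower) with an adjusted p of 0.0572. DESeq2 called it there (-1.01 ± 0.25, adjusted p 0.00138), as did limma without the filter on low values (adjusted p 0.0497, in a fit that called 1.91% of the genes). Without wild type 2 it was -1.01 there with an adjusted p of 0.209. Within replicates 4 and 5 the difference was -0.20 ± 0.43, and the interaction of 0.83 ± 0.47 had an adjusted p of 0.516.

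The ratio of *Dcn* to *Lum* within a library puts these neighbours side by side without any scaling between libraries. It was 6.26, 4.57, 4.53, 15.5 and 6.96 in wild type 1 to 5. In the libraries labelled *Mgp*-KO it was 12.3, 26.7, 9.63, 23.1 and 19. The medians were 6.26 and 19, and only wild type 4 reached into the range of the other group. The ratio was formed after the values of both genes were seen and was given no test.

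**Figure D2:**
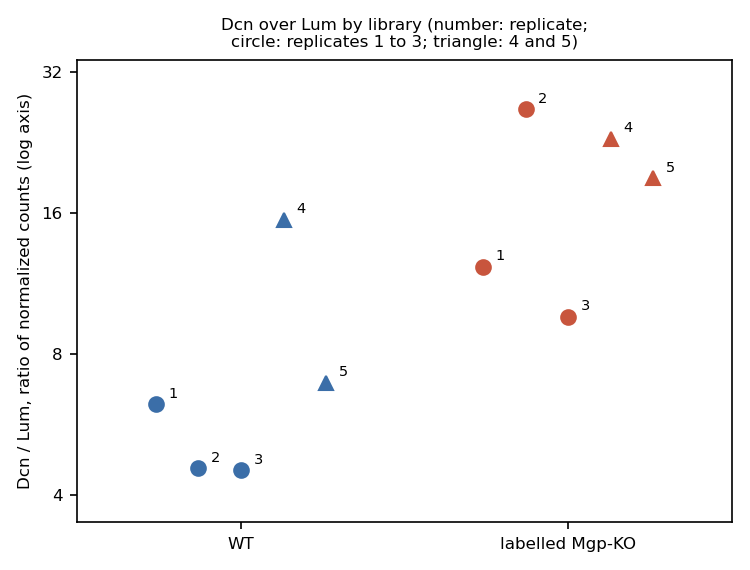
Ratio of the normalized counts of *Dcn* and *Lum* in each library on a log axis, numbered by replicate, with circles for replicates 1 to 3 and triangles for replicates 4 and 5. Wild type 4, at 15.5, lies above *Mgp*-KO 1 and 3, at 12.3 and 9.63, and the other wild-type libraries lie below every library labelled *Mgp*-KO.

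*Bgn* encodes biglycan, the close relative of decorin, on chrX:73483602-73495933 (plus strand). It had 1598, 1387, 1911, 712 and 1088 normalized counts in wild type and 2218, 1476, 1973, 1161 and 999 under the *Mgp*-KO label. Every library of replicates 4 and 5 was below every library of replicates 1 to 3. The genotype difference was 0.24 ± 0.30 with an adjusted p of 0.834. It was 0.20 ± 0.19 in replicates 1 to 3, 0.09 without wild type 2 there, and 0.29 ± 0.34 in replicates 4 and 5.

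*Fmod* encodes fibromodulin, a collagen-binding relative of lumican, on chr1:134037254-134048277 (plus strand). It had 33.6, 43.4, 44.8, 23.5 and 15.6 normalized counts in wild type and 27.9, 19.1, 45.2, 35.6 and 12.9 under the *Mgp*-KO label. The lowest and the highest value were both in the latter group. The difference was -0.21 ± 0.41 with an adjusted p of 0.898. It was -0.46 ± 0.33 in replicates 1 to 3, -0.41 without wild type 2 there, and 0.16 ± 0.75 in replicates 4 and 5.

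*Ogn* encodes osteoglycin, also called mimecan, on chr13:49608046-49624501 (plus strand), inside the gene *Cenpp* on the other strand. It had 316, 288, 162, 346 and 320 normalized counts in wild type and 184, 174, 219, 290 and 336 under the *Mgp*-KO label. Apart from wild type 3, the wild-type values lay within 288 to 346. The difference was -0.25 ± 0.26 with an adjusted p of 0.793. It was -0.36 ± 0.26 in replicates 1 to 3, -0.24 without wild type 2 there, and -0.09 ± 0.32 in replicates 4 and 5.

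*Prelp* encodes prolargin, a proteoglycan that links basement membranes to collagen, on chr1:133910304-133921414 (minus strand), overlapping the antisense gene *Gm15851*. Its normalized counts were 8889, 6580, 7477, 2367 and 2317 in wild type 1 to 5. In the libraries labelled *Mgp*-KO they were 15040, 4659, 13750, 848 and 4900. The highest was 17.7 times the lowest, the widest range of the members, and the SD within groups of 1.36 on the log2 scale was in percentile 95.1 of the tested genes.

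The *Prelp* difference was 0.15 ± 0.72 with an adjusted p of 0.965 and a 95% interval of -1.43 to 1.72 in limma. Over the same libraries edgeR and DESeq2 gave 0.50, and DESeq2 with a set term gave 0.44, none of them called. The limma difference was 0.38 ± 0.42 within replicates 1 to 3, 0.28 without wild type 2 there, and -0.20 ± 0.76 within replicates 4 and 5. In replicates 1 to 3 without *Mgp*-KO 2 it was 0.92 ± 0.15, and limma called it (adjusted p 0.0187). *Mgp*-KO 2 also stood apart in skeletal muscle markers, at 32510 normalized counts against 36.1 to 6188 in the other libraries of replicates 1 to 3, and the part of these in the value was not tested. *Fmod* lies 115.8 kb from *Prelp*. The ratio of *Prelp* to *Fmod* ran from 101 to 264 in wild type and from 244 to 539 in the libraries labelled *Mgp*-KO other than *Mgp*-KO 4, where it was 23.8.

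Within replicates 1 to 3, where limma called 486 genes (3.54% of those tested), 0 members were called and 2 members (*Lum* and *Dcn*) had an unadjusted p under 0.05, against 3016 genes. Groups did not overlap for *Dcn* (higher), *Fbn1* and *Lum* (lower), 3 of 10 members, and for 30.6% of all tested genes. The count of the members is thus near the background. DESeq2 called 8.83% of 15270 genes in these libraries and *Lum* alone among the members. Without *Mgp*-KO 2 limma called *Lum* (-0.78, adjusted p 0.0241) and *Prelp*, in a fit that called 811 genes (5.91%), and without wild type 2 it called 26 genes and 0 members.

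Within replicates 4 and 5, 2 libraries against 2, limma called 0 genes (0% of those tested), with 855 genes and 0 members at an unadjusted p under 0.05. DESeq2 called 50 genes there and 0 members. *Dcn* was higher and *Fbn1* and *Fbln5* lower without overlap, 3 of 10 members, where 41.6% of all tested genes did not overlap. Over all 10 libraries 0 members and 3.5% of the tested genes did not overlap. The interaction of genotype and set called 0 members and 1 gene, *Mgp* itself (0.00729% of those tested), with 1419 genes and 1 member at an unadjusted p under 0.05.

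**Figure D3:**
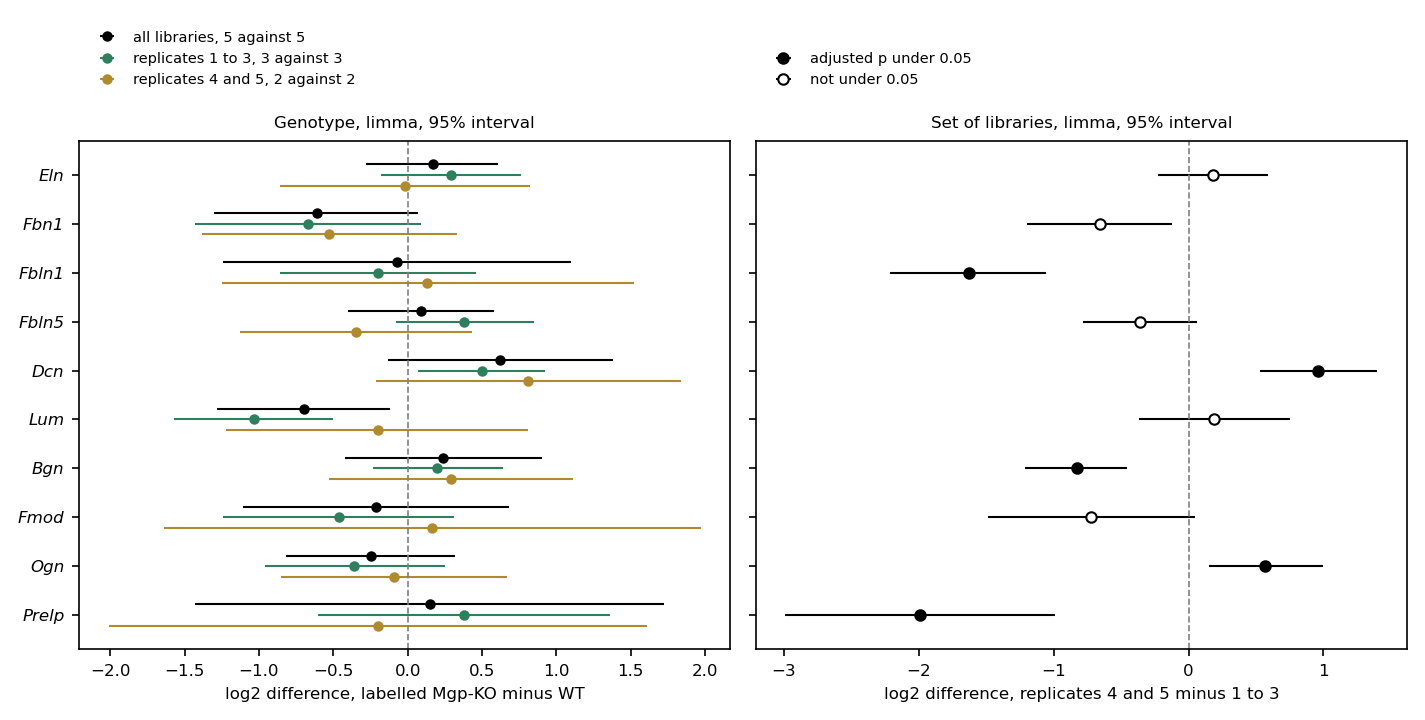
Log2 differences of the members with 95% intervals from limma, on the left between genotypes over all libraries and within each set, on the right between replicates 4 and 5 and replicates 1 to 3. On the left the intervals of *Lum* (-1.28 to -0.12) over all libraries and of *Lum* and *Dcn* in replicates 1 to 3 exclude 0, before any adjustment, and on the right filled circles mark the 5 members with an adjusted p under 0.05.

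With genotype in the model, limma called 5 of 10 members between the sets of libraries, next to 38.2% of all tested genes. *Prelp* was lower in replicates 4 and 5 by 3.96-fold (-1.99 ± 0.46, adjusted p 0.00606), from 9399 ± 4130 (SD, n = 6) to 2608 ± 1680 (n = 4) normalized counts. *Fbln1* was 3.10-fold lower (-1.63 ± 0.26, adjusted p 8.46e-04) and *Bgn* 1.78-fold lower (-0.83 ± 0.17, adjusted p 0.00341). *Dcn* was 1.95-fold higher (0.96 ± 0.20, adjusted p 0.00332) and *Ogn* 1.49-fold higher (0.57 ± 0.19, adjusted p 0.0372).

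*Fbn1* (-0.66 ± 0.25, adjusted p 0.0534) and *Fmod* (-0.72 ± 0.35, adjusted p 0.124) had lower values and did not pass the test. *Eln*, *Lum* and *Fbln5* had adjusted p of 0.466, 0.587 and 0.162. The sets did not overlap for *Fbln1* and *Bgn*, 2 of 10 members, and for 25.2% of the tested genes. Depth and mitochondrial ribosomal RNA moved with the sets, as given above, and their part in these values was not tested. The call of *Ogn* was lost when 1 library was left out in 7 of 10 cases, with the difference between 0.45 and 0.67.

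**Figure D4:**
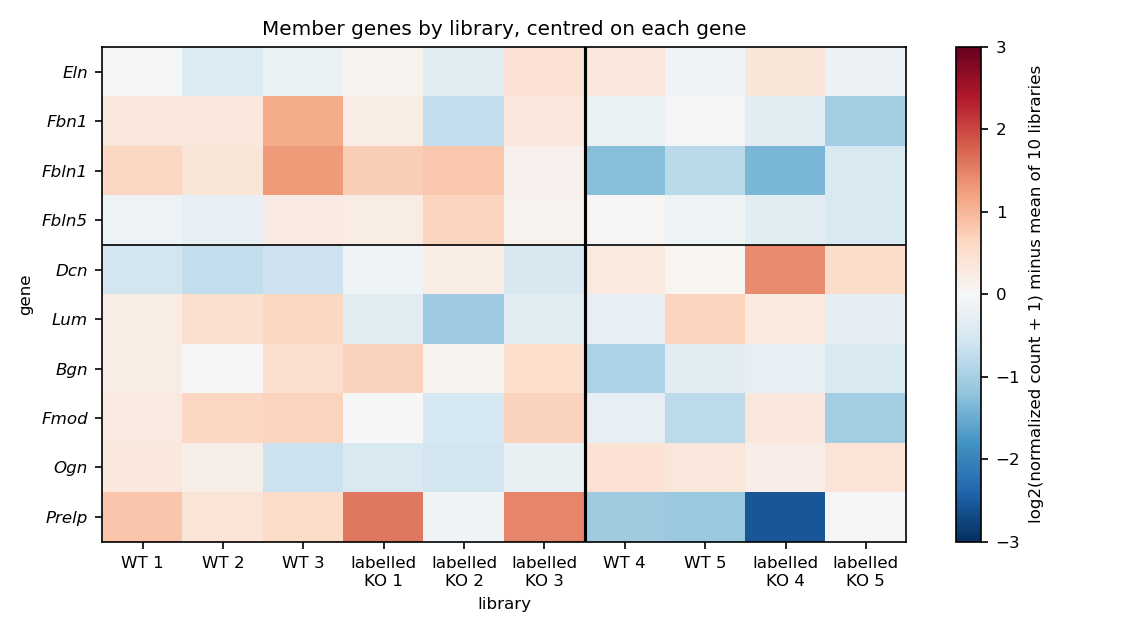
Log2(normalized count + 1) of each member minus its mean over the 10 libraries, with replicates 1 to 3 left of the vertical line, replicates 4 and 5 right of it and elastic fibre genes above the horizontal line. *Fbln1* and *Bgn* are red or near white on the left and blue on the right, *Dcn* is mostly the reverse, and the darkest field is *Prelp* in *Mgp*-KO 4 (-2.56).

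Averaged over the members, this centred profile held 0.21, 0.10, 0.35, -0.29 and -0.23 for the wild-type libraries and 0.26, -0.15, 0.26, -0.22 and -0.29 under the *Mgp*-KO label. Both groups thus held high values in replicates 1 and 3 and low values in replicates 4 and 5. The 5 other genes with the most similar profile, by root-mean-square difference over 10 libraries, were *Zfp438* (0.076), *Gltp* (0.077), *Ifnar2* (0.077), *Ppp6r1* (0.077) and *Adgre5* (0.079). All of them were lower in each library of replicates 4 and 5 than in wild type 1 to 3. The profile averages members that moved in opposite directions, and no member on its own has to follow it.

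Because *Prelp*, *Bgn* and *Fbln1* were lower together in replicates 4 and 5, the bases before their starts are shown. Promoters of 7 of the 10 members, 9 in all, were found in the RefSeq table of GRCm38.p6, which holds 32851 promoters of the mouse. Of each, only the 250 bases before the start were read, 5′ to 3′ on the strand of the gene. Capitals mark the letters GGGCGG or their reverse complement CCGCCC, a GC box. The windows are chr1:133921402-133921651 (minus strand) for *Prelp*, chrX:73483351-73483600 (plus strand) for *Bgn* and chr15:85205758-85206007 (plus strand) for the second of the listed starts of *Fbln1*.
Prelp: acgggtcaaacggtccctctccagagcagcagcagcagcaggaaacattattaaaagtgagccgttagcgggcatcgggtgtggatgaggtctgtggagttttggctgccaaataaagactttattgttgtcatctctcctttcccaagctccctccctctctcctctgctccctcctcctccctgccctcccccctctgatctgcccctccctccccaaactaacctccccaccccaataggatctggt
Bgn: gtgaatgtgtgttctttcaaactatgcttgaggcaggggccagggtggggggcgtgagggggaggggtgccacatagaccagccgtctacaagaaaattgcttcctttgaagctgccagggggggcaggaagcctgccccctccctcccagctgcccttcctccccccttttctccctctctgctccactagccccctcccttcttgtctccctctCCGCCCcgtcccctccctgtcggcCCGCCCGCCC
Fbln1: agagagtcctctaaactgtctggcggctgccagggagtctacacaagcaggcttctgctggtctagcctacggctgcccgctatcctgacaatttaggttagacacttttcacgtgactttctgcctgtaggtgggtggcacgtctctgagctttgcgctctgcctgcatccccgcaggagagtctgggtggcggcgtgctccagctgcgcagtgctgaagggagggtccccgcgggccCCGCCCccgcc

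On both strands, 3 motifs were searched in all these windows. GGGCGG was in 32.7% of all promoters, TATAAA, the letters of a TATA box, in 12.4%, and GGCGCC, a GC-rich SMAD element, in 9.59%. *Bgn* held 3 GC boxes, 34, 10 and 6 bases before its start, the last 2 overlapping each other. The second *Fbln1* window held 1, 11 bases before the start, and its first window held none of the 3 motifs. *Prelp* and *Fmod* held none of them either. *Fbn1* held a GC box 185 bases before its start, and *Fbln5* held GC boxes at 221 and 48 and GGCGCC at 31 before the first start and GGCGCC at 238 before the second. *Ogn* held TATAAA letters at 229 and 227. GC content was 55.6% for *Prelp*, 64.4% for *Bgn* and 62.4% for the second *Fbln1* window, with a median of 52.4% over all promoters. The first *Fbln1* window, not printed here, had 46.4%. No searched motif was in the windows of all 3 members that were lower together. These letters are descriptions of the windows only.

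Other genes of the elastic fibre were tested in the same fit, and 18 of 21 listed genes passed the filter on low values. Limma called 0 of them for genotype over all libraries, with 3 at an unadjusted p under 0.05, next to 1421 of all 13714 tested genes. Of the 18 differences 13 were negative, with a median of -0.23 on the log2 scale next to 0.03 over all genes. In replicates 1 to 3 there were 15 negative (median -0.33), and in replicates 4 and 5 there were 10 (median -0.06). The smallest p was that of *Loxl1*, a lysyl oxidase that cross-links tropoelastin, with 388, 427, 525, 229 and 635 normalized counts in wild type and 254, 125, 261, 136 and 101 under the *Mgp*-KO label. Only wild type 4 lay within the range of the other group. The difference was -1.35 ± 0.34 with an adjusted p of 0.147 in limma. DESeq2 called it (-1.32, adjusted p 0.0152), in a fit that called 374 genes against 9 in limma. Limma and edgeR with the set term called it as well (adjusted p 0.0418 and 0.0439), in fits that called 324 and 341 genes. It was not called in limma with the replicate block (adjusted p 0.052), in edgeR without a set term (0.151), in replicates 1 to 3 (-1.12, 0.0821) or in replicates 4 and 5 (-1.69, 0.679).

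*Ltbp3*, which tethers latent TGF-beta to microfibrils, had 3086, 3235, 3663, 1454 and 2331 normalized counts in wild type and 2009, 1512, 2201, 1743 and 1062 under the *Mgp*-KO label. The groups did not overlap in replicates 1 to 3, as for 30.6% of all tested genes, and limma called it lower there (-0.82 ± 0.16, adjusted p 0.0415), 1 of the 18 genes, next to 3.54% of all tested genes. Without wild type 2 it was -0.84 and not called (adjusted p 0.166). Over all libraries the difference was -0.66 ± 0.28 with an adjusted p of 0.435. Between the sets 5 of the 18 were called, next to 38.2% of all tested genes, and all 5 were lower in replicates 4 and 5: *Mfap2* (-1.60), *Fbln2* (-0.91), *Ltbp3* (-0.66), *Ltbp4* (-0.58) and *Ltbp2* (-0.57), which encode microfibril proteins or proteins bound to them.

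Of 12 other small leucine-rich proteoglycan genes, 7 passed the filter and 0 were called for genotype, with a median of 0.09. At an unadjusted p under 0.05 was 1 of the 7, next to 1421 of all 13714 tested genes. The smallest p of the 7 were those of *Optc*, which lies 2.3 kb from *Prelp* (1.19 ± 0.52, adjusted p 0.453), and *Nyx* (1.38 ± 0.79, adjusted p 0.586). *Optc* rested on 1 to 25 reads in a library and *Nyx* on 0 to 26. Their means were 6.49 and 8.82 in wild type and 14.6 and 21.35 under the *Mgp*-KO label, so both passed the filter only through the latter. *Aspn*, the gene of asporin 40.5 kb from *Ogn*, was higher in replicates 4 and 5 (1.20 ± 0.25, adjusted p 0.00344), as *Ogn* was. *Chadl*, a chondroadherin-like gene, was lower there (-0.96 ± 0.29, adjusted p 0.0225), and these were the 2 of 7 that limma called between the sets, where it called 38.2% of all tested genes. The ratio of *Aspn* to *Ogn* was 0.724 to 1.78 in wild type and 0.971 to 1.68 in the libraries labelled *Mgp*-KO.

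Of 21 matrix-degrading enzymes and their inhibitors, all tested, 0 were called for genotype over all libraries, with a median of 0.15. An unadjusted p under 0.05 was found for 7 of them, next to 1421 of all 13714 tested genes. *Mmp19*, a metalloproteinase, had 567, 638, 548, 529 and 806 normalized counts in wild type and 338, 145, 300, 321 and 491 under the *Mgp*-KO label. The difference was -1.04 ± 0.28 with an adjusted p of 0.201. The groups did not overlap for *Mmp19* and for *Mmp12*, as for 3.5% of all tested genes. *Mmp12*, macrophage elastase, had 0 to 10.7 normalized counts in wild type and 14.8 to 38.9 under the *Mgp*-KO label (limma, adjusted p 0.336). It rested on 0 to 15 reads in wild type. Its mean was 6.95 in wild type and 22.08 in the other group, so it passed the filter only through the latter. *Timp4*, a metalloproteinase inhibitor of fat and heart, had 665, 573, 661, 2672 and 860 in wild type and 1697, 1953, 1384, 3948 and 4327 under the *Mgp*-KO label. Only wild type 4 reached into the range of the other group.

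The *Timp4* difference was 1.42 ± 0.45 with an adjusted p of 0.265 over all libraries, and limma called it higher in replicates 1 to 3 (1.39 ± 0.15, adjusted p 0.00896), 1 of the 21 genes, next to 3.54% of all tested genes. Without wild type 2 it was 1.32 there and not called (adjusted p 0.07). With the set term limma called it over all libraries too (adjusted p 0.0186), in a fit that called 324 genes against 9 without the term. Between the sets 7 of the 21 were called, next to 38.2% of all tested genes, with *Adamts5*, *Timp4* and *Timp3* higher and *Mmp11*, *Mmp2*, *Mmp14* and *Adamts2* lower in replicates 4 and 5. *Mmp2*, a gelatinase, fell by 1.42 ± 0.18 (adjusted p 2.24e-04) on the log2 scale, and *Mmp11* by 1.98 ± 0.25 (adjusted p 2.25e-04).

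Markers of the cells that could carry these genes were measured beside them. Fibroblast and progenitor markers (11 of 12 listed genes) summed to 4940 to 7676 normalized counts in wild type and 4581 to 7127 under the *Mgp*-KO label. In replicates 1 to 3 the sums were 6386, 6403 and 7676 in wild type and 5414, 4581 and 5762 under that label. In replicates 4 and 5 they were 4940 and 5494 against 7127 and 4846. Differences were negative for 8 of the 11 over all libraries (median -0.30), 9 in replicates 1 to 3 (median -0.39) and 8 in replicates 4 and 5 (median -0.43). Limma called 0 of these markers for genotype over all libraries, with 3 at an unadjusted p under 0.05, next to 1421 of all 13714 tested genes. Between the sets it called 5 of 11, where it called 38.2% of all tested genes (*Pdgfra*, *Pdgfrb* and *F3* lower, *Ly6a* and *Cd55* higher in replicates 4 and 5). Smooth muscle and pericyte markers summed to 11580 to 17110 and 11500 to 15700. Endothelial markers summed to 19840 to 33770 in wild type and 23660 to 63220 under the *Mgp*-KO label, highest in *Mgp*-KO 4, which also held the highest *Dcn* and the lowest *Prelp*. All 10 had positive differences over all libraries (median 0.48), with 0 called and 1 at an unadjusted p under 0.05 in limma, next to 1421 of all 13714 tested genes.

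Brown adipocyte markers, among them *Ucp1* at 38420 to 116000 normalized counts in wild type, were present in every library. All 10 had negative differences over all libraries, with 0 called in limma. Of these, 4 had an unadjusted p under 0.05, next to 1421 of all 13714 tested genes. In replicates 1 to 3, where limma called 3.54% of all tested genes, *Ucp1* and *Elovl3* were called lower, 2 of the 10. Tendon and fascia markers (7 of 8 listed genes) summed to 157 to 220 normalized counts in wild type and 115 to 266 under the *Mgp*-KO label, with *Fibin* the highest in each library, while *Scx*, *Tnmd* and *Mkx* were at 4.69 or less in each library. Of the 3 that passed the filter 0 were called for genotype over all libraries in limma. Of these 3, *Comp* had an unadjusted p under 0.05, as had 1421 of all 13714 tested genes. *Comp* had 2.93 to 9.3 normalized counts in wild type and 13.1 to 54.3 under the *Mgp*-KO label, without overlap, as for 3.5% of all tested genes. It was below 10, the mean set by the filter, in each wild-type library, so it passed only through the other group. The cartilage and bone genes *Col2a1*, *Matn3*, *Sp7* and *Bglap* were at 4.11 or less. The 7 cartilage and bone genes in the table, mostly *Sox9* and *Acan*, summed to 27.8 to 55.1 in wild type and 78.0 to 231 in the libraries labelled *Mgp*-KO. These sums did not overlap, where 3.5% of all tested genes taken singly did not. The 2 genes that passed the filter, *Sox9* and *Acan*, were not called over all libraries in limma. Both had an unadjusted p under 0.05, as had 1421 of all 13714 tested genes. The part of any of these cells in the values of the members was not tested.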

How the data were processed

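RNA-seq of iBAT from 5 libraries labelled wild type and 5 labelled *Mgp*-KO, grouped by the sample labels, was analysed. Per the methods, the authors aligned single-end reads (50 bases) with STAR to mm10, counted them on genes and divided each library by a DESeq2 size factor; the deposited normalized counts are therefore a signal per gene. All values (100%) were whole multiples of 1 read within 0.1 read, and the recovered reads were 9253793 to 22252260 per library. The strand setting of the counting is not given in the sources used here, and genes that overlap, antisense ones included, may have shared reads.

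Genes with a mean of at least 10 were tested with limma 3.58.1 (lmFit, eBayes with trend) in R 4.3.3 on log2(normalized count + 1), with Benjamini-Hochberg adjustment over all tested genes and a threshold of 0.05. Single values were compared by two-sided exact permutation tests. Alternatives included edgeR 4.0.16 and DESeq2 1.42.0 on recovered reads, which like limma were tested on simulated data. P-values measure the spread between these libraries. Named by rule were all members, *Mgp*, list genes past the threshold or else the 2 with the smallest p, and the 5 genes nearest the mean profile. Outside this rule *Mmp12*, some cell type markers and genes that overlap members were named as well. *Xist* was added after its values were seen. Members, lists, sets and motifs were chosen with earlier results of these data known. Coordinates and transcript lengths are from GENCODE vM21 (GRCm38) and promoters from RefSeq.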

Additional observations from a re-analysis of the deposited data

How the results depend on the processing

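The members' result, 0 of 10 called over all libraries, was the same under 25 of 26 alternatives, DESeq2 with a set term calling 1 (*Dcn*). Between the sets 5 members were called, and 4 to 6 under the 19 alternatives there. The number of genes called over all libraries (9) moved with the processing: 29 at a pseudocount of 10, 1 without the filter, 15 at a mean of at least 50, 34 with quantile normalization, 3 in edgeR, 374 in DESeq2, 324, 341 and 1152 with a set term in limma, edgeR and DESeq2, 267 without the libraries labelled *Mgp*-KO 4 and 5, and 97 without these and wild type 2, a setting chosen after seeing the data. The other listed matrix genes went from 0 calls to 1 in DESeq2 (*Loxl1*), 2 with a set term in limma and in edgeR (*Loxl1*, *Timp4*), 8 in DESeq2 with it, and 1 without *Mgp*-KO 4 and 5 (*Mmp19*). In replicates 1 to 3 the members called went from 0 to 1 without the filter and 1 in DESeq2 (*Lum* in both), and the genes from 486 to 280 without the trend, 1348 in DESeq2 and 42 from a model of 4 groups. DESeq2 called 50 genes in replicates 4 and 5 and 61 for the interaction, where limma called 0 and 1.

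The methods speak of 5 pairs of mice, and the labels do not say what a shared number stands for. Deviations of the same number correlated at 0.389 on average (0.056 for number 2, 0.327 to 0.527 for the others), those of other numbers of the same set at 0.416, and 5 of 10 libraries correlated best with their own number, so the numbers were not taken as pairs. With the replicate block, limma called 270 genes and edgeR 222 over all libraries, 1 of the other matrix genes each (*Timp4*), and limma 265 in replicates 1 to 3, with 0 members in each of these fits.

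Apart from the fits that left out 1 library, given below, reversed signs were all in members far from the threshold. *Fbln1* was 0.52 without *Mgp*-KO 4 and 5 and 0.60 without wild type 2 as well, where *Fmod* was 0.08; both fits keep wild type 4 and 5 and so mix genotype and set, and within replicates 1 to 3 these genes were at -0.20 and -0.46. In replicates 4 and 5, *Eln* was 0.04 with equal upper quartiles and 0.06 with quantile normalization, *Fbln1* -0.14 and *Fmod* -0.15 with the latter, and *Prelp* 0.31 in edgeR and in DESeq2.

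With each library left out in turn, genes called over all libraries ranged from 0 (without wild type 2) to 93 (without *Mgp*-KO 4), in replicates 1 to 3 from 26 (without wild type 2) to 811 (without *Mgp*-KO 2), and for the interaction from 1 to 1612 (without *Mgp*-KO 5); members called in replicates 1 to 3 ranged from 0 to 2 (without *Mgp*-KO 2). Members with an exact permutation p under 0.05 (*Lum*) ranged from 0 to 1, the call being lost without wild type 2, 3 or 5 or *Mgp*-KO 1, 2 or 3. Ranges that crossed 0 over all libraries were -0.40 to 0.26 for *Fbln1*, -0.07 to 0.21 for *Fbln5*, -0.44 to 0.02 for *Fmod* and -0.23 to 0.81 for *Prelp*. In replicates 1 to 3 it was -0.39 to 0.06 for *Fbln1*, and between the sets -0.02 to 0.46 for *Lum*. In replicates 4 and 5, where an arm then holds 1 library assumed to vary like the other, they were -0.29 to 0.25 for *Eln*, -0.32 to 0.58 for *Fbln1*, -0.66 to 0.26 for *Lum*, -0.02 to 0.60 for *Bgn*, -0.53 to 0.86 for *Fmod*, -0.20 to 0.02 for *Ogn* and -1.46 to 1.06 for *Prelp*. The causes were not tested. *Fmod* rested on 9 to 61 reads in a library, which limits its precision.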
